A study of Mus musculus with 48 samples.

Results

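In all, 10 genes of the endoplasmic reticulum (ER) folding and stress response were followed through the day in a brain region and a sensory ganglion of the mouse: Hspa5, Hsp90b1, Pdia4, Pdia6, Calr, Xbp1, Atf4, Ddit3, Herpud1 and Sdf2l1. They were picked by name, as 10 of the 25229 gene symbols of the count table, with earlier results of these data known. All 10 passed the filter on low counts in both tissues. RNA was sequenced from micropunches of the arcuate nucleus, a hypothalamic region that governs feeding, and from left nodose ganglia, which house the sensory neurons of the vagus nerve. All mice were labelled male, of the Rev-erba/b flox/flox genotype (floxed Nr1d1 and Nr1d2, the genes of the clock repressors REV-ERBα and REV-ERBβ) on a C57Bl/6J background, aged 10 to 12 weeks. They were kept at 27 C on chow with 12 h of light and 12 h of dark. Control mice received AAV8-TBG-EGFP by tail vein at 6 to 10 weeks of age, and HepDKO mice received AAV8-TBG-Cre, and tissue was taken 2 to 4 weeks later. The TBG promoter directs expression to hepatocytes, so in HepDKO the floxed genes were targeted in the liver and not in the tissues that were sequenced. Collection was at 4, 10, 16 and 22 h from lights on (zeitgeber times ZT4, ZT10, ZT16 and ZT22), with 3 libraries in each of 16 groups and 48 libraries in all. An arcuate library pooled micropunches of 3 mice per the treatment protocol (3 to 4 per the design text), and a nodose library pooled ganglia of 4 mice.

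The ER folds proteins that are secreted or placed in membranes. When unfolded proteins build up there, the membrane sensors IRE1, PERK and ATF6 start the unfolded protein response. IRE1 splices the Xbp1 mRNA into the form that encodes an active transcription factor, ATF6 is cut to release one, and PERK slows translation while favouring that of ATF4. Together these factors raise chaperones, protein disulfide isomerases and degradation factors, and ATF4 raises Ddit3, which encodes the pro-apoptotic factor CHOP. In hypothalamic neurons this response is known for its links to feeding, leptin signalling and peptide secretion.

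Promoter sequences are shown for the response elements that some of these genes hold. RefSeq promoters (build GRCm38.p6, 32851 windows of 300 bases, 250 before and 50 after the start) were matched for 10 of 10 genes and searched on both strands. The ER stress element, the site known to be bound by ATF6 with NF-Y, was searched as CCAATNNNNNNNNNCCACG. It was present in 4 of the 10 promoters (Hspa5, Hsp90b1, Pdia6 and Calr) and in 39 of all 32851 (0.119%). ER stress element II, searched as ATTGG, any 1 base and CCACG, was present in Herpud1 and in 12 promoters in all (0.0365%). The 250 bases before the start are printed for those 5 genes and, for contrast, for Sdf2l1, which held no full match. Averaged over genotypes, Sdf2l1 had the highest 24-h amplitude of the 10 in both tissues, though its nodose pattern did not pass the test. Capitals mark each match of an ER stress element, an ER stress element II or, in Herpud1, the motif TGATGCAA described after the sequences.
Hspa5: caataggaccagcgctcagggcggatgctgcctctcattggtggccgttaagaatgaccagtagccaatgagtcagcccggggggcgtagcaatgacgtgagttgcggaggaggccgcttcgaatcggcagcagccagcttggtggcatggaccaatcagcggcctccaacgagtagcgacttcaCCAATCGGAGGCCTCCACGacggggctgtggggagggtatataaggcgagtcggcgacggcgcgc
Hsp90b1: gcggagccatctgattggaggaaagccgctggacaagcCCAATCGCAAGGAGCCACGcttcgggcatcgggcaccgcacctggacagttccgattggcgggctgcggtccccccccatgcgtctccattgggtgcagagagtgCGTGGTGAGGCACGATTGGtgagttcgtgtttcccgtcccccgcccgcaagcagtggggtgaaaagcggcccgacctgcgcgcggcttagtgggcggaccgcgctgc
Pdia6: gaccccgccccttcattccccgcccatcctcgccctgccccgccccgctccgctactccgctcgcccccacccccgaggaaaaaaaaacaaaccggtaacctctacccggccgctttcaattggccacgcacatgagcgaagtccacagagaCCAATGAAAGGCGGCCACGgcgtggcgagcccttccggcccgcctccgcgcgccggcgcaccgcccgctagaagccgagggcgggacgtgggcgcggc
Calr: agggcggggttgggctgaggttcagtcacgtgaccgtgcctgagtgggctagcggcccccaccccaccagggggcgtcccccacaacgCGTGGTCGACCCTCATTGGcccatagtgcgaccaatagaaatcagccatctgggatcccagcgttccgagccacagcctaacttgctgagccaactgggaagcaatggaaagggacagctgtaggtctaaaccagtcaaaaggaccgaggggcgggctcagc
Herpud1: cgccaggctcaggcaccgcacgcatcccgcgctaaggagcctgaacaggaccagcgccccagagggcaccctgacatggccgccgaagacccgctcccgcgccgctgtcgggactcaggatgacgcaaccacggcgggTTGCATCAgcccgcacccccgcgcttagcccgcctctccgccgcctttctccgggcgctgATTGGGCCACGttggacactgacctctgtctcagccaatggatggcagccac
Sdf2l1: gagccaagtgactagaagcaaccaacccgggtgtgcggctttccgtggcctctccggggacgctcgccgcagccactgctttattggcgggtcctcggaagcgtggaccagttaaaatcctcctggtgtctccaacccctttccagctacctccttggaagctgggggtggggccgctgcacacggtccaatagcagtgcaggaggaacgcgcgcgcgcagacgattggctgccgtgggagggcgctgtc
The Hspa5 sequence lies at chr2:34771840-34772089 on the plus strand and holds its element at -65 to -47, counted from the start. Hsp90b1 (chr10:86705445-86705694, minus strand) holds an element on the gene's own strand at -212 to -194 and another on the opposite strand at -107 to -89. Pdia6 (chr12:17266339-17266588, plus strand) holds one at -98 to -80, and Calr (chr8:84846932-84847181, minus strand) one on the opposite strand at -162 to -144. In Herpud1 (chr8:94386179-94386428, plus strand) the second type of element lies at -52 to -42. The Sdf2l1 sequence is at chr16:17132384-17132633 on the minus strand. CCACG alone, the part of the element that every full match contains, was present in 8 of the 10 windows and in 32.8% of all promoters.

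The motifs searched next matched fewer of these promoters than the ER stress element did. TGACGTGG, known as the UPR element of XBP1 and searched in this spelling alone, matched 0 of the 10 and 0.676% of all promoters. The ATF4-C/EBP composite TGATGCAA matched Herpud1 alone (0.895% of all promoters), on the opposite strand at -112 to -105. A second spelling of that composite, TGATGNAAT, matched 0 of the 10 (0.965% of all). The E-box CACGTG, the site known for the clock activators CLOCK and BMAL1, matched Calr alone (7.15% of all). These matches are descriptions of letters in a window and not of binding. In GENCODE's annotation of the same build, Xbp1 lies at chr11:5520659-5525893 (plus strand), Pdia4 at chr6:47796141-47813430 (minus), Atf4 at chr15:80255184-80257541 (plus) and Ddit3 at chr10:127290774-127296288 (plus).

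Depth differed between the tissues. Arcuate libraries held 15483922 to 20399718 counts, and nodose libraries held 1813994 to 10422914, with the lowest total in Control replicate 1 at ZT4. Arcuate and nodose libraries were prepared by different providers and kits, and a difference between tissues cannot be told apart from one between preparations. Summed neuron markers (6 genes) ran from 2832 to 3548 CPM in arcuate but from only 26.45 to 86.25 in nodose, where Schwann cell markers (5 genes) reached 11070 to 30440 and skeletal muscle markers (5 genes) 3448 to 65250. Of the listed plasma and B cell markers, cells known for high ER load, 3 of 5 were in the table and summed to 0.541 to 2.40 CPM in arcuate and 2.76 to 11.7 in nodose. Nr1d1 was measured in every library, at 35.91 to 67.59 CPM in arcuate HepDKO and 11.14 to 131.7 in nodose HepDKO, which says nothing of deletion in the liver. Xist, which male tissue should lack, had 1914 counts in arcuate HepDKO replicate 3 at ZT10 and 1694 in nodose HepDKO replicate 2 at ZT10, against at most 13 in the other 46 libraries. In the marker sums of brain cells and pituitary, 2 arcuate libraries stood apart. HepDKO replicate 3 at ZT4 had the lowest astrocyte and tanycyte sum (1817 CPM, against 2566 or more in all the others) and the highest pituitary sum (420.4). Control replicate 1 at ZT22 had the highest oligodendrocyte (3553), neuron (3548) and Schwann cell (288.5) sums. HepDKO replicate 1 at ZT22 had a muscle sum of 33.4 CPM, against 11.3 or less in the other arcuate libraries, and its removal changed no count of called genes among the 10 for the arcuate 24-h pattern.

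Levels per length put 3 chaperones far above the rest. Library-size-scaled counts (CPM, with TMM factors within tissue) per kilobase of merged exons had medians over 24 arcuate libraries of 140 for Hsp90b1 (the ER form of HSP90, GRP94), 124 for Calr (calreticulin, a calcium-binding lectin chaperone) and 103.9 for Hspa5 (BiP, the ER form of HSP70). Next came Pdia6 at 41.2, Atf4 at 34.2, Herpud1 at 29.8, Xbp1 at 28.1 and Pdia4 at 22.2, then Sdf2l1 at 10.2 and Ddit3 at 9.24. The ranges of all neighbours in this order overlapped except those of Hspa5 (82.64 at its lowest) and Pdia6 (49.43 at its highest). In nodose the same 3 led, with Hsp90b1 at 119, Calr at 109 and Hspa5 at 70.8 CPM per kb, followed by Atf4 at 42.2 and by Herpud1, Pdia4, Pdia6 and Xbp1 between 32.6 and 23.7. Ddit3 at 10.5 and Sdf2l1 at 4.32 were again lowest, and there the only gap between neighbours lay between Xbp1 and Ddit3. Levels in bulk tissue cannot tell fewer cells of a type from less RNA per cell.

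In the arcuate nucleus 7 of the 10 genes followed a 24-h pattern. Averaged over genotypes, all 7 fitted peaks fell in the dark phase, that of Herpud1 at ZT12.1, just after lights off. The pattern was tested as any difference ZT4 minus ZT16 or ZT10 minus ZT22, averaged over genotypes, with edgeR's quasi-likelihood test and Benjamini-Hochberg adjustment over all genes at a threshold of 0.05. Across all 16102 tested genes, 3.86% passed, against 7 of 10 here, and 21.6% had an unadjusted p under 0.05, against 8 of 10. Amplitude, from mean to peak on the log2 scale, had a median of 0.13 over the 10 genes and 0.074 over all genes. Peaks fell between ZT15 and ZT17 for 5 of the 7, a span that held 22.2% of all called arcuate genes, while 54.8% of those called peaked in the dark.

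**Figure D1:**
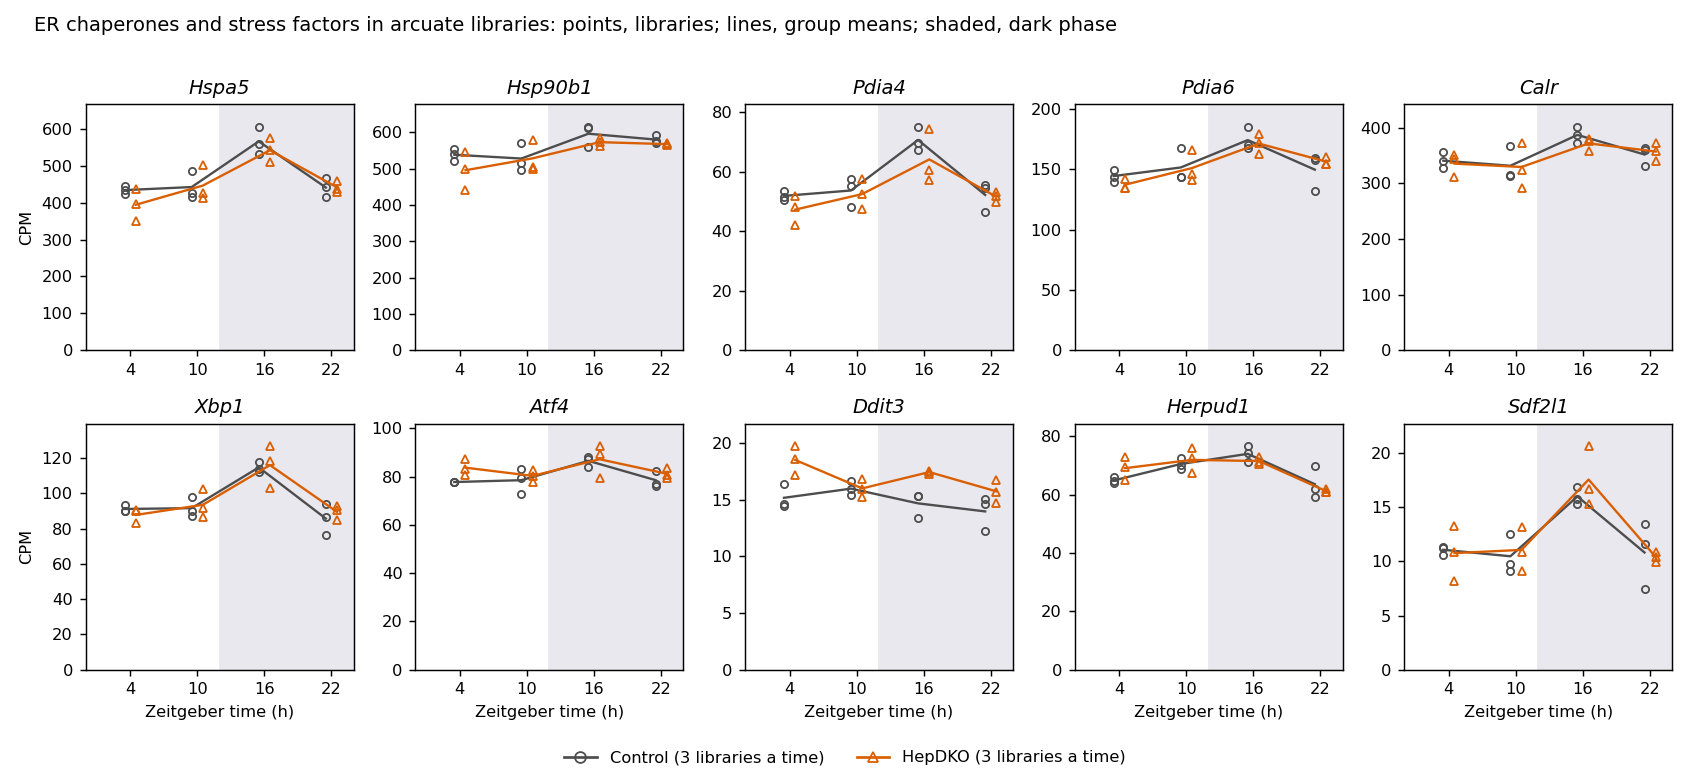
CPM of the 10 genes in each arcuate library (y axes, from 0) against zeitgeber time in hours (x axes), with circles for Control, triangles for HepDKO, lines through the means of 3 libraries and the dark phase shaded. Hspa5, Xbp1 and Sdf2l1 were higher in all 6 libraries at ZT16 than in any library at another time, while Ddit3 showed no such step.

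Among the chaperones, Hspa5 gave the lowest p of the 10 genes. Its CPM ran from 349.5 through a median of 428 to 445 in the 6 libraries at ZT4, from 412 through 426 to 502 at ZT10, from 509 through 551 to 605 at ZT16 and from 415 through 439 to 466 at ZT22. All 6 libraries at ZT16 lay above all 18 others. The amplitude was 0.21 (SE 0.028) with a peak at ZT15.9 and a level 1.34-fold higher at ZT16 than at ZT4 (edgeR adjusted p = 0.000235, rank 21 of all genes).

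Sdf2l1, a cofactor of the BiP chaperone cycle, had the largest amplitude of the 10 in arcuate, 0.31 (SE 0.063). It was measured at 8.17 to 13.3 CPM at ZT4 (median 11.01), 9.08 to 13.1 at ZT10 (10.3), 15.3 to 20.6 at ZT16 (16.2) and 7.40 to 13.5 at ZT22 (10.6). Here too every library at ZT16 exceeded every library at the other times. The peak was at ZT15.9 and the ratio of ZT16 to ZT4 was 1.53-fold (edgeR adjusted p = 0.0147). Without HepDKO replicate 2 at ZT16, which held the 20.6, the edgeR adjusted p was 0.0553 and the call was lost.

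The protein disulfide isomerases Pdia4 and Pdia6, which form and reshuffle disulfide bonds, moved at the same time of day. Pdia4 had 42.1 to 53.7 CPM at ZT4 (median 51.0), 47.6 to 57.6 at ZT10 (54.0), 57.4 to 75.2 at ZT16 (68.5) and 46.7 to 55.7 at ZT22 (52.6). Pdia6 had 135 to 149 CPM at ZT4 (median 141), 141 to 167 at ZT10 (145), 162.5 to 185 at ZT16 (171) and 132 to 160.4 at ZT22 (156). For each, the 6 libraries at ZT16 stood above those at ZT4 and at ZT22, but overlapped with ZT10. The amplitude of Pdia4 was 0.22 (SE 0.033), peaking at ZT15.7 (edgeR adjusted p = 0.000801). That of Pdia6 was 0.15 (SE 0.026), peaking at ZT16.2 (edgeR adjusted p = 0.00427).

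Hsp90b1 had a smaller and later pattern, high at both dark times. It had 440.5 to 555 CPM at ZT4 (median 530.2), 496 to 580.3 at ZT10 (511), 560.2 to 615 at ZT16 (578.5) and 566.5 to 592 at ZT22 (571). Its 12 dark-phase libraries all lay above the 6 at ZT4. The amplitude was 0.11 (SE 0.024) with a peak at ZT18.3 (edgeR adjusted p = 0.0291), and the call was lost without any of 6 single libraries (edgeR adjusted p up to 0.0703), namely Control replicate 1 at ZT4, Control replicates 2 and 3 and HepDKO replicates 2 and 3 at ZT16, and HepDKO replicate 1 at ZT10. Part of Hsp90b1 (415 exon bases) overlaps 1810014B01Rik on the opposite strand, and how reads there were assigned is not given.

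Calr did not pass, with an amplitude of 0.097 and a peak at ZT18.1 (edgeR adjusted p = 0.0716). It had 312 to 356 CPM at ZT4 (median 341), 292 to 373 at ZT10 (319), 359 to 402 at ZT16 (378) and 332 to 372 at ZT22 (359). The libraries at ZT16 were all above those at ZT4. Calr passed with DESeq2 (adjusted p = 0.0319) and when HepDKO replicate 3 at ZT10, a library with Xist counts, was left out (edgeR adjusted p = 0.0229). It also passed without Control replicate 3 at ZT10 (0.0383) or HepDKO replicate 3 at ZT4 (0.0496), in the same edgeR test. With replicate numbers added to that fit as a block, Calr passed too (edgeR adjusted p = 0.0235).

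Of the transcription factors, only Xbp1 passed in arcuate. Xbp1 had 83.0 to 93.4 CPM at ZT4 (median 90.0), 86.5 to 102.3 at ZT10 (90.8), 103.2 to 127 at ZT16 (116) and 76.6 to 93.8 at ZT22 (88.7). Its libraries at ZT16 did not overlap with any at the other times, although ZT10 came close. The amplitude was 0.19 (SE 0.027) and the peak ZT15.2 (edgeR adjusted p = 0.000682). Counts per gene do not separate the spliced from the unspliced Xbp1 mRNA, so this is the total.

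Atf4 and Ddit3, of the PERK arm, did not pass. Atf4 had 77.6 to 87.4 CPM at ZT4, 72.9 to 83.2 at ZT10, 79.6 to 92.6 at ZT16 and 76.1 to 83.4 at ZT22, with an amplitude of 0.053 (edgeR adjusted p = 0.274). Ddit3 had 14.5 to 19.7, 15.2 to 16.8, 13.4 to 17.6 and 12.3 to 16.8 CPM at those times, with an amplitude of 0.064 and, alone among the 10, a fitted peak in the light phase (ZT7.93, edgeR adjusted p = 0.436). For both genes the ranges at all 4 times overlapped. ATF4 is known to be regulated mainly in its translation, which counts of mRNA do not show.

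Herpud1, which helps pass misfolded proteins to ER-associated degradation, followed a pattern with an earlier peak. It had 64.1 to 72.8 CPM at ZT4 (median 65.4), 67.4 to 75.9 at ZT10 (71.3), 70.5 to 76.6 at ZT16 (72.1) and 59.1 to 69.7 at ZT22 (61.5). All 6 libraries at ZT16 were above all 6 at ZT22, but not above all at ZT4. The amplitude was 0.11 (SE 0.022) and the peak ZT12.1, just after lights off (edgeR adjusted p = 0.0116). By genotype the fitted peak was at ZT13.5 in Control and at ZT10.8, in the light phase, in HepDKO. With samples 6 h apart, such a peak is placed only roughly. Hspa5, Pdia4, Pdia6, Xbp1 and Herpud1 stayed past the threshold when each of the 24 arcuate libraries was left out in turn. Without the 2 libraries apart in brain cell and pituitary sums, an alternative added after those sums were seen, 8 of 10 passed (7.47% of all genes), with Calr joining (edgeR adjusted p = 0.0398).

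Overlap between times was also counted directly, with no model. In 7 of the 10 genes (Hspa5, Hsp90b1, Pdia4, Pdia6, Calr, Xbp1 and Sdf2l1) all 6 arcuate libraries at ZT16 were above all 6 at ZT4, against 2.03% of all genes. In 3 of them (Hspa5, Xbp1 and Sdf2l1) the 6 at ZT16 were above all 18 others, against 0.317%. In none of the 10 did ZT10 lie wholly above ZT4, against 0.261% of all genes.

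Taken alone, each genotype gave fewer calls. In Control 0 of 10 genes passed with edgeR (0.261% of all genes did), although 8 of 10 had an unadjusted p under 0.05 (7.73% of all genes) and DESeq2 called 3 (108 genes in all). The lowest adjusted p in Control was 0.0795, for Hspa5 with edgeR. In HepDKO 2 of 10 passed (0.379% of all), Hspa5 with an amplitude of 0.23 (edgeR adjusted p = 0.0152) and Xbp1 with 0.20 (edgeR adjusted p = 0.0285), and DESeq2 called 5 (380 genes in all). Without HepDKO replicate 2 at ZT16 neither passed in HepDKO (edgeR adjusted p = 0.128 for Hspa5 and 0.218 for Xbp1), and the same was true without HepDKO replicate 1 at ZT16 (0.0582 and 0.1005). Each call was also lost without 1 further library, that of Hspa5 without HepDKO replicate 3 at ZT4 (0.0555) and that of Xbp1 without HepDKO replicate 2 at ZT22 (0.0530), in the same test. Leaving out single libraries also added calls, up to 3 of 10 in Control and 5 of 10 in HepDKO. Without HepDKO replicate 3 at ZT4, which enters the Control test only through the shared spread, Hspa5 (edgeR adjusted p = 0.0225), Pdia4 (0.0202) and Xbp1 (0.0336) passed in Control. In that test Hspa5 also passed without HepDKO replicate 2 at ZT4 (0.0396) or HepDKO replicate 3 at ZT10 (0.0404), and Pdia4 without Control replicate 1 at ZT22 (0.0486) or HepDKO replicate 2 at ZT16 (0.0355). In HepDKO, leaving out Control replicate 1 at ZT22 brought in Pdia4 (edgeR adjusted p = 0.0369), Pdia6 (0.0375) and Sdf2l1 (0.0454). Pdia4 (0.0321) and Hsp90b1 (0.0456) also passed there without HepDKO replicate 2 at ZT4, and Sdf2l1 (0.0457) without HepDKO replicate 3 at ZT4. Without both libraries apart in brain cell and pituitary sums, 6 of 10 passed in Control (Hspa5, Pdia4, Pdia6, Xbp1, Herpud1 and Sdf2l1, with 1.5% of all genes) and 5 of 10 in HepDKO (1.86% of all genes).

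The test of the difference itself found none between the genotypes. For HepDKO minus Control in the arcuate 24-h pattern, 0 of 10 genes passed with edgeR or DESeq2, 0 had an unadjusted p under 0.05, and 0% of all genes passed with edgeR. The size of that difference ran from 0.0085 (Pdia4) to 0.11 (Sdf2l1) on the log2 scale, with edgeR adjusted p = 0.999 for each. In the same fits the amplitude of Hspa5 was 0.19 (SE 0.040) in Control and 0.23 (SE 0.040) in HepDKO.

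**Figure D2:**
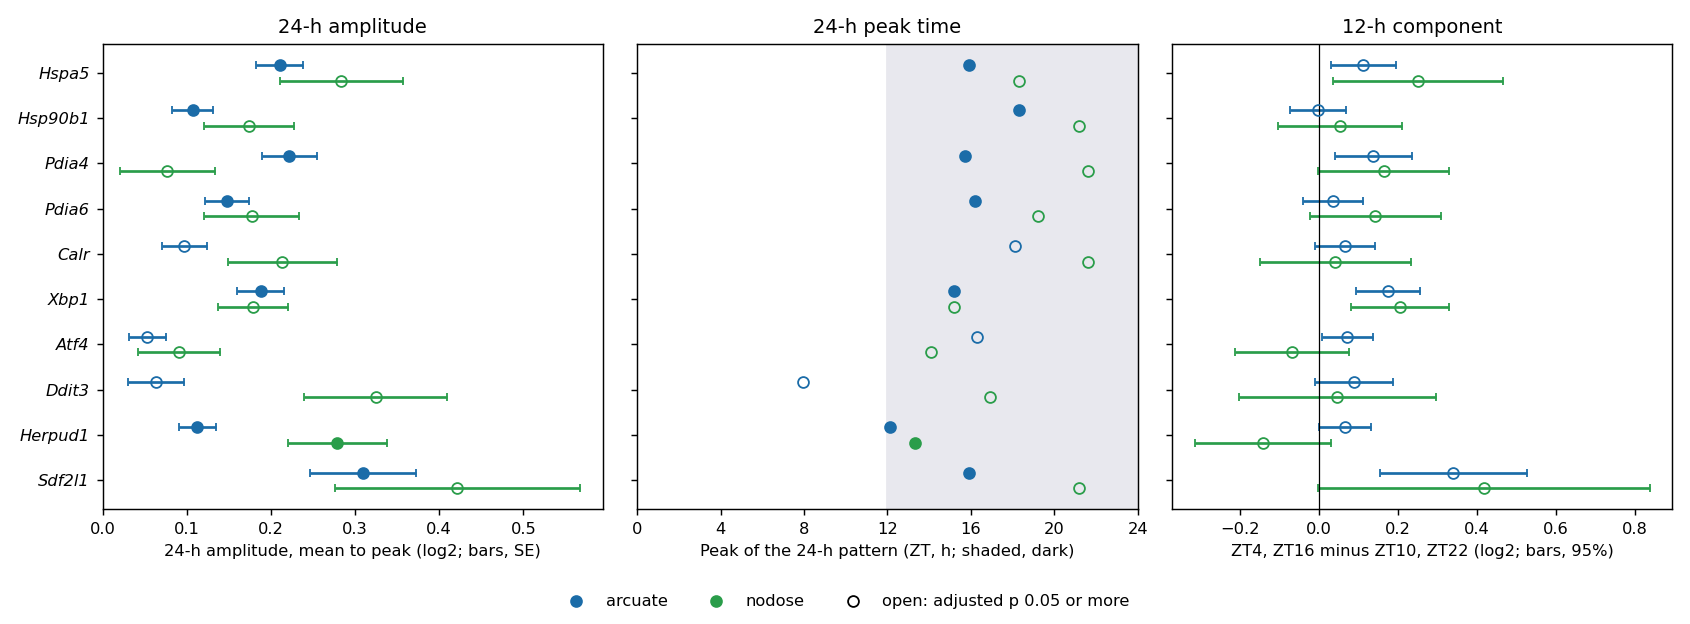
For each gene, the 24-h amplitude (log2, bars are SE), the peak time (ZT in hours, dark phase shaded) and the 12-h component (log2, bars are 95% intervals), averaged over genotypes, in arcuate (blue) and nodose (green), with filled points for adjusted p under 0.05. Arcuate amplitudes lie between 0.053 and 0.31, and 9 of 10 arcuate peaks and all 10 nodose peaks fall in the dark.

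Marker levels of other cell types in arcuate are given beside these values, and 3.86% of all arcuate genes passed the 24-h test with edgeR. The sum of 5 oligodendrocyte markers was 2563 to 3100 CPM at ZT4 and 1727 to 2808 at ZT16, with a Pearson r of -0.594 with Hspa5 over 24 libraries, and 1 of the 5 (Cnp, peak ZT3.99) passed the 24-h test with edgeR and 3 (Cnp, Mag and Mog) with DESeq2. None of the 5 was at 0 in all libraries. Of 4 tested Schwann cell markers 1 passed with either tool (Pmp22, peak ZT5.67). Neuron markers had r = -0.474 with Hspa5 and 0 of 6 passed, and astrocyte and tanycyte markers had r = 0.335 with 0 of 6 passed. With oligodendrocyte and pituitary marker levels as covariates, 4 of the 10 genes passed, against 1.58% of all genes in that fit: Hspa5 with an amplitude of 0.15 (edgeR adjusted p = 0.00411), Pdia4 with 0.16 (0.0275), Xbp1 with 0.14 (0.0164) and Herpud1 with 0.13 (0.00610). In that fit Hsp90b1 with an amplitude of 0.087 (edgeR adjusted p = 0.1101), Pdia6 with 0.10 (0.0582) and Sdf2l1 with 0.23 (0.0935) no longer passed. The part of cell makeup in these patterns was otherwise not tested.

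Genes of neighbouring ER functions were read from lists chosen with results of these data known. Of 22 other ER chaperones and folding enzymes, 21 were tested in arcuate and 5 passed the 24-h test, all with dark-phase peaks (23.8% against 3.86% of all genes). They were led by Creld2, a disulfide isomerase, with an amplitude of 0.23 and a peak at ZT15.2 (edgeR adjusted p = 0.00274). Manf, an ER-resident trophic factor, had 0.19 at ZT15.7 (edgeR adjusted p = 0.00875), and Dnajc3, a J-protein partner of BiP, had 0.20 at ZT16.7 (edgeR adjusted p = 0.00901). In CPM, Creld2 had 18.7 to 21.9 at ZT4 and 24.6 to 29.2 at ZT16, Manf 49.2 to 55.6 and 61.2 to 76.0, and Dnajc3 63.6 to 109 and 115 to 137. In these 3 genes all libraries at ZT16 were above all at ZT4, against 2.03% of all genes. They were named by the lowest adjusted p of a test that holds this contrast, so the separation restates that choice. The other two, Hyou1 (ZT16.9) and Uggt1 (ZT17.0), are named after their values were seen.

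The remaining lists are read against 3.86% of all arcuate genes called and 21.6% at an unadjusted p under 0.05. Of 14 sensors and regulators of the response, among them Ern1, Eif2ak3 and Atf6, 0 passed with edgeR, with 2 at an unadjusted p under 0.05, and DESeq2 called 1 (Ppp1r15b). Of 18 target genes of ATF4 and CHOP, 1 passed with edgeR and 2 with DESeq2 (Atf3 and Ddit4). The 1 of edgeR peaked in the light: Ddit4, an inhibitor of mTORC1, had an amplitude of 0.21 with a peak at ZT5.55 (edgeR adjusted p = 0.00832). Of 16 factors of ER-associated degradation 1 passed, Derl2, at ZT17.2 with an amplitude of 0.10 (edgeR adjusted p = 0.0459). Of 16 genes for entry into the secretory pathway and exit from the ER, 0 passed with edgeR or DESeq2 and 2 had an unadjusted p under 0.05. For the chaperone list DESeq2 called 8 genes, against the 5 of edgeR. Among all arcuate genes DESeq2 called 1117, against 622 with edgeR.

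**Figure D3:**
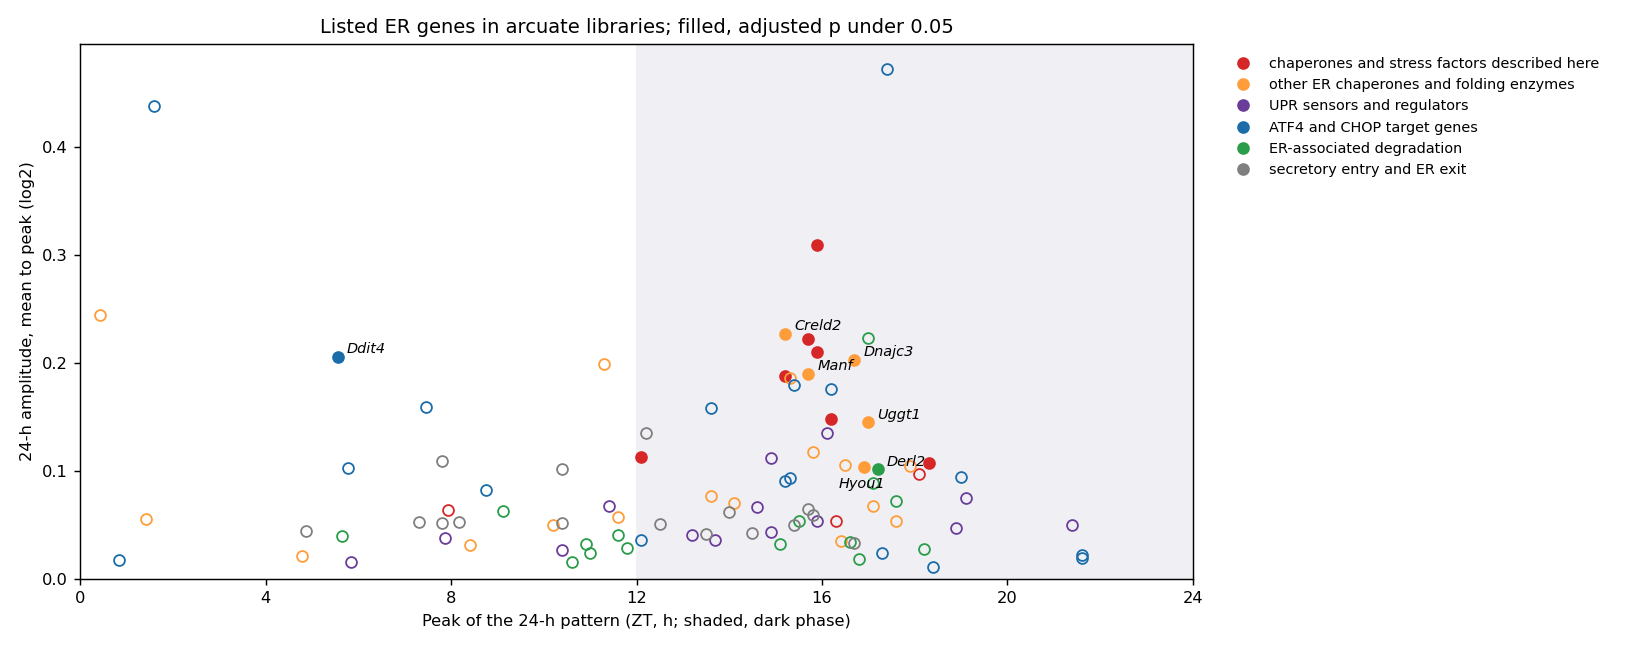
Amplitude of the 24-h pattern (log2, y axis) against its peak (ZT in hours, x axis; dark phase shaded) in arcuate for the 10 genes and 5 further ER lists, filled where the adjusted p was under 0.05. The 7 filled points of the 10 genes and the 5 of the other chaperones all fall in the dark phase, and Ddit4 is the only filled point in the light.

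The 37 genes whose promoter held an ER stress element were also set against the 24-h result. Besides the 4 described here, 17 were tested in arcuate, and 2 of them passed, Creld2 and Dnajc3, both also in the chaperone list. An unadjusted p under 0.05 was found for 3 of these 17, against 21.6% of all genes. Of the 4 described here, 3 passed, and 3.86% of all genes did, and all 4 had an unadjusted p under 0.05. In nodose 0 of the 15 other tested genes passed with edgeR or DESeq2, with 3 at an unadjusted p under 0.05 (12.8% of all genes). Of the 4 described here, 0 passed there with edgeR and Hspa5 passed with DESeq2, and all 4 had an unadjusted p under 0.05.

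The genes most like Hspa5 from library to library were sought among all tested genes. Over the 24 arcuate libraries, the 5 genes with the highest Pearson r of log2 CPM with Hspa5 were Pdia4 (0.947), P4ha1 (0.928), Pdia6 (0.923), Ccar1 (0.918) and Xbp1 (0.910). Thus 3 of the top 5 of 16101 genes were from the 10 described here. P4ha1 encodes a collagen prolyl hydroxylase of the ER, and Ccar1 a nuclear transcription coactivator. Sdf2l1 (0.786, rank 92), Hsp90b1 (0.760, rank 148) and Calr (0.742, rank 184) stood lower among all genes. Lower still were Atf4 (0.474, rank 1847) and Herpud1 (0.313, rank 3612), and Ddit3 had r = -0.233 (rank 11429). Over all 45 pairs of the 10 genes, 37 had a positive r, with a median of 0.491. All points share their library, its time and its depth.

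Taking out the means of the 8 groups left Hspa5 with r = 0.83 with Pdia6, 0.813 with Pdia4 and 0.800 with Xbp1 in the deviations. Of the 45 arcuate pairs 28 had a positive r of deviations, with a median of 0.375. Herpud1 mostly went the other way, with r from -0.828 with Sdf2l1 through -0.631 with Calr and -0.346 with Hspa5 to -0.0447 with Hsp90b1. Its r with Ddit3 was 0.511. Arcuate Control replicate 1 at ZT22, a library apart in marker sums, had 69.67 CPM of Herpud1 and 7.403 of Sdf2l1. These were the highest and the lowest of the 6 libraries of that time. The part of single libraries in these r was not tested. In nodose the deviations of Herpud1 and Atf4 had r = 0.795, and those of Herpud1 and Hspa5 0.173.

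A 12-h component was read as the mean of ZT4 and ZT16 minus that of ZT10 and ZT22, which shows only 1 phase of such a pattern with samples 6 h apart. In arcuate it passed the test in 0 of the 10 genes with edgeR (0.0124% of all genes). With DESeq2 it passed in 1 of the 10 (Xbp1, adjusted p = 0.0309) and in 20 genes in all. An unadjusted p under 0.05 was found with edgeR for 6 of 10, against 7.10% of all genes. The component was positive in 9 of 10, against 49.0% of all genes. The largest values were 0.34 for Sdf2l1 (95% interval 0.15 to 0.53, edgeR adjusted p = 0.311), 0.17 for Xbp1 (0.094 to 0.25, edgeR adjusted p = 0.138) and 0.14 for Pdia4 (0.041 to 0.23, edgeR adjusted p = 0.49). A pattern high at ZT16 alone, as in these genes, gives a positive value in this contrast. With marker levels as covariates Xbp1 (edgeR adjusted p = 0.0112) and Sdf2l1 (0.0190) passed (0.149% of all genes), and Xbp1 also passed without HepDKO replicate 3 at ZT4 (0.0469) and without both libraries apart in brain cell and pituitary sums (0.0278). The difference between genotypes in this component passed in 0 of 10 genes with edgeR and DESeq2, with 0 at an unadjusted p under 0.05 and 0% of all genes called.

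In the nodose ganglion only Herpud1 passed the 24-h test, although all 10 genes had fitted peaks in the dark, against 45.7% of all genes. Of all 14867 tested genes 1.33% passed, against 1 of 10 here, and 12.8% had an unadjusted p under 0.05, against 8 of 10. DESeq2 called 3 of the 10 and 383 genes in all, against 198 genes with edgeR. The median amplitude was 0.20 over the 10 genes and 0.12 over all genes. In simulated data with the depth and spread of these libraries, 5% of 1.3-fold and 67.7% of 2-fold peak-to-trough patterns were recovered in nodose (14653 genes), against 57.6% and 94% in arcuate (15956 genes).

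**Figure D4:**
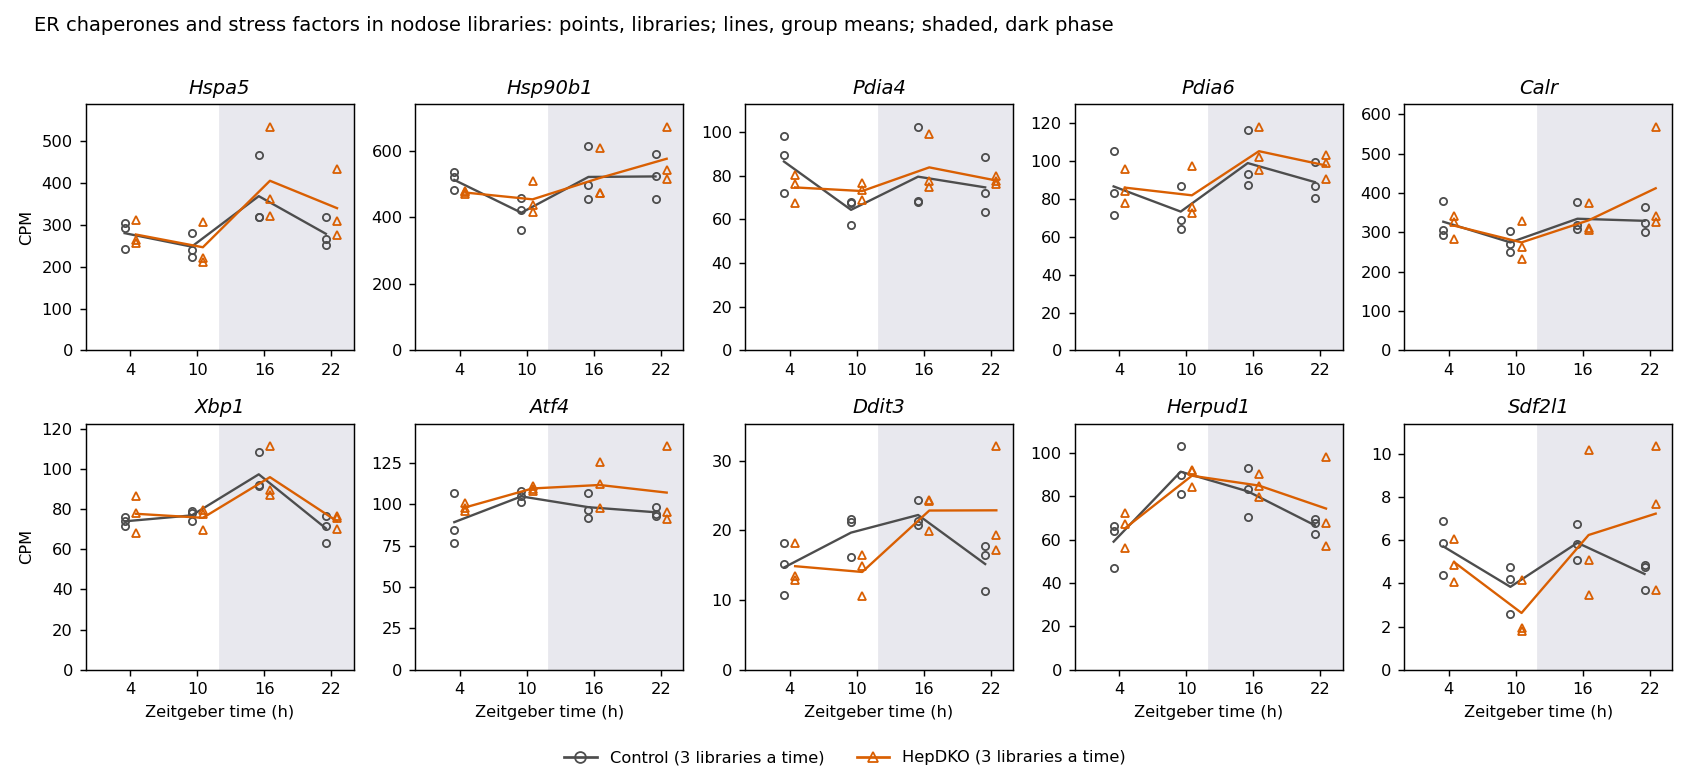
CPM of the 10 genes in each nodose library (y axes, from 0) against zeitgeber time in hours (x axes), drawn as for arcuate. Herpud1 was higher at ZT10 than at ZT4 in all 6 libraries, Xbp1 was highest at ZT16, and 1 HepDKO library at ZT22 stood above the others in several genes.

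Nodose Herpud1 had 47.0 to 72.2 CPM at ZT4 (median 65.2), 81.1 to 103.2 at ZT10 (90.9), 70.6 to 93.1 at ZT16 (84.2) and 57.0 to 98.4 at ZT22 (67.8). No library at ZT10 overlapped with any at ZT4, which held for 1 of the 10 genes and 0.538% of all. The amplitude was 0.28 (SE 0.059) and the peak ZT13.3, close to its arcuate peak of ZT12.1 (edgeR adjusted p = 0.0395). The call held in 9 of the 24 fits that left 1 library out (edgeR adjusted p from 0.00177 to 0.0749). It was lost without Control replicates 1 and 2 at ZT4, 1 at ZT10, 1 and 2 at ZT16 or 2 and 3 at ZT22, and without HepDKO replicates 1 and 2 at ZT4, 1 and 3 at ZT10, 1, 2 and 3 at ZT16 or 2 at ZT22, each left out singly. It was also lost without the 2 shallowest nodose libraries, an alternative added after the totals were seen (0.0560), and with muscle and adipocyte markers as covariates (0.0670), in the same test.

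Xbp1 had the pattern most alike in the 2 tissues. In nodose it had 68.3 to 86.6 CPM at ZT4 (median 75.1), 69.8 to 79.8 at ZT10 (77.6), 86.9 to 111 at ZT16 (91.8) and 62.9 to 76.6 at ZT22 (73.7). Its 6 libraries at ZT16 were above all 18 others, the 1 gene of the 10 for which this held (0.0673% of all genes). The amplitude was 0.18 and the peak ZT15.2, as in arcuate, but the test was not passed (edgeR adjusted p = 0.0779). DESeq2 called it (adjusted p = 0.0176), and so did edgeR without HepDKO replicate 3 at ZT22 (adjusted p = 0.0391).

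Hspa5 and Ddit3 were also wholly above ZT4 at ZT16 in nodose, making 3 of 10 with Xbp1 against 1.01% of all genes. Hspa5 had 243 to 311.5 CPM at ZT4 (median 278), 212.5 to 306 at ZT10 (231.5), 319.6 to 535 at ZT16 (341) and 251 to 435 at ZT22 (293). Its amplitude was 0.28 (SE 0.073), beside 0.21 (SE 0.028) in arcuate, with a peak at ZT18.3, and it did not pass (edgeR adjusted p = 0.125). With DESeq2 it did (adjusted p = 0.0435). Ddit3 had 10.7 to 18.3 CPM at ZT4, 10.6 to 21.7 at ZT10, 19.9 to 24.4 at ZT16 and 11.4 to 32.1 at ZT22, with an amplitude of 0.32 and a peak at ZT16.9 (edgeR adjusted p = 0.134).

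The other nodose genes stayed short of the threshold. Sdf2l1 had an amplitude of 0.42 (SE 0.15) on 1.81 to 10.3 CPM, with a peak at ZT21.2 (edgeR adjusted p = 0.317). Its amplitude was 0.13 (SE 0.20) in Control and 0.72 (SE 0.21) in HepDKO. Calr (0.21), Pdia6 (0.18) and Hsp90b1 (0.17) had peaks between ZT19.2 and ZT21.6 and edgeR adjusted p between 0.225 and 0.257. Without HepDKO replicate 3 at ZT22 the amplitude of Calr was 0.14. Atf4 (0.091, ZT14.1) and Pdia4 (0.077, ZT21.6, and 0.048 without Control replicate 2 at ZT22) had the smallest amplitudes. By genotype, 0 of 10 passed with edgeR or DESeq2 in Control (0.242% of all genes with edgeR) and 0 in HepDKO (0.121%), with 3 and 5 of 10 at an unadjusted p under 0.05, against 8.88% and 7.28% of all genes. The genotype difference in the pattern passed in 0 of 10 by either tool (0% of all genes with edgeR), and only Ddit3 had an unadjusted p under 0.05 (0.0153, edgeR adjusted p = 0.982).

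The nodose 12-h component passed in 0 of 10 genes by either tool (0% of all with edgeR). An unadjusted p under 0.05 was found for 2 of 10, against 6.92% of all genes: Xbp1 at 0.20 (95% interval 0.081 to 0.33, edgeR adjusted p = 0.654) and Hspa5 at 0.25 (0.036 to 0.47, edgeR adjusted p = 0.708). Its difference between genotypes passed in 0 of 10 by either tool, with 0 at an unadjusted p under 0.05 and 0% of all genes called.

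Other pathway genes in nodose gave 1 call with edgeR and 2 with DESeq2 (Chac1 and Nupr1). Chac1, a target gene of ATF4 that degrades glutathione, had medians of 4.73, 9.07, 1.16 and 1.70 CPM at ZT4, ZT10, ZT16 and ZT22. Its libraries at ZT10 (6.73 to 19.7 CPM) were all above those at ZT16 (0.586 to 4.63) and ZT22 (1.098 to 4.43). Chac1 was named by the 24-h test itself, so this separation adds no support. The amplitude was 1.21 (SE 0.22) with a light-phase peak at ZT8.24 (edgeR adjusted p = 0.0136), and it was the 1 of 18 ATF4 and CHOP targets to pass with edgeR. In the lists of other chaperones (19 tested), sensors (14), degradation (16) and secretory entry (16), 0 passed with edgeR or DESeq2, with 6, 2, 1 and 1 at an unadjusted p under 0.05. Of all nodose genes 1.33% were called with edgeR (198 genes, against 383 with DESeq2), and 12.8% had an unadjusted p under 0.05.

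Nodose genes most like Hspa5 over 24 libraries were Pdia6 (r = 0.872), Manf (0.859), Hsp90ab1 (0.846), Hspa8 (0.843) and Creld2 (0.813). Hsp90ab1 and Hspa8 encode cytosolic chaperones, which were not among the leading genes in arcuate. Of the 45 pairs, 38 had a positive r, with a median of 0.376. Markers of other cells varied alongside: summed fibroblast markers (5 genes, 6031 to 12930 CPM, none at 0 in all libraries) had r = 0.738 with Calr and 0.355 with Hspa5. Thyroid markers (5 genes, 1.64 to 13.7 CPM) had 0.541 and 0.51, and pituitary markers (6 genes, 2 at 0 in all libraries, 2.73 to 12.48 CPM) 0.531 and 0.397. Muscle markers had r = -0.238 with Hspa5. Adipocyte markers (5 genes) had r = 0.143 with Hspa5 and medians of 577, 1077, 1114 and 639 CPM at ZT4, ZT10, ZT16 and ZT22. Of those 5, 0 passed the 24-h test with edgeR and 1 (Lep) with DESeq2. Of these lists 0 of 5 fibroblast and 0 of 5 muscle markers passed the 24-h test, while Cx3cr1 of microglia (1 of 5) and Tshr of thyroid (1 of 5 listed) did. Their part in the nodose values was not tested beyond the fit with muscle and adipocyte markers.

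The difference of the 24-h patterns between tissues was tested with each tissue's own spread. It passed in 0 of 10 genes and in 0.373% of 13941 genes tested in both, and 4 of 10 had an unadjusted p under 0.05, against 10.1% of all. Ddit3 differed by 0.37 (0.064 in arcuate and 0.32 in nodose, adjusted p = 0.168) and Pdia4 by 0.23 (0.22 and 0.077, adjusted p = 0.279), in the F test on the edgeR estimates. Sdf2l1 differed by 0.47 (adjusted p = 0.399) and Herpud1 by 0.17 (adjusted p = 0.455) in the same F test. For Xbp1 the difference was 0.0091, the smallest of the 10. In simulated data this test recovered 3.33% of 1.3-fold and 64.1% of 2-fold patterns (13762 genes), so small differences would not be seen. The 12-h component differed between tissues in 0 of 10 and 0% of all genes, with 1 of the 10 at an unadjusted p under 0.05. In a joint fit of both tissues, 0 of 10 passed for either pattern.

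No difference in level between HepDKO and Control passed the test for these genes. In arcuate, HepDKO minus Control averaged over the 4 times passed in 0 of 10 genes with edgeR or DESeq2 (0% of all genes with edgeR), and 1 of 10, Ddit3, had an unadjusted p under 0.05, against 8.61% of all genes. In the other 9 the log2 difference ran from -0.081 for Pdia4 to 0.049 for Atf4. The interval of each of the 9 held 0: the difference of Hspa5 was -0.047 (95% interval -0.13 to 0.035, and -0.027 without HepDKO replicate 3 at ZT4) and that of Xbp1 0.014 (-0.067 to 0.094). In simulated data 74% of 1.3-fold genotype differences were recovered in arcuate and 36% in nodose.

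Ddit3, the gene of CHOP, was 0.18 higher on the log2 scale in arcuate HepDKO (SE 0.048, 95% interval 0.079 to 0.27, 1.13-fold, unadjusted p = 0.000991, edgeR adjusted p = 0.277). At ZT4 the 3 Control libraries had 14.5, 14.7 and 16.4 CPM and the 3 HepDKO libraries 17.2, 18.6 and 19.7. At ZT16 these were 13.4, 15.3 and 15.4 in Control and 17.3, 17.5 and 17.6 in HepDKO. The genotypes did not overlap at these 2 times. All 3 HepDKO libraries were above all 3 Control libraries in 2 of the 10 genes at ZT4 (Ddit3 and Atf4, the latter with 77.6 to 78.0 and 80.5 to 87.4 CPM), against 6.76% of all genes. This held for 0 of 10 at ZT10 (5.71%), 1 of 10 at ZT16 (4.72%) and 0 of 10 at ZT22 (4.15%). For Ddit3 the genotypes overlapped at ZT10 (15.4 to 16.6 and 15.2 to 16.8 CPM) and ZT22 (12.3 to 15.05 and 14.7 to 16.8). The log2 differences were 0.29, 0.0022, 0.25 and 0.17 at ZT4, ZT10, ZT16 and ZT22, with edgeR adjusted p between 0.322 and 1. Leaving out single libraries kept the mean difference between 0.16 and 0.19 with edgeR adjusted p of at least 0.188. The Ddit3 symbol covers 2 gene records that share 105 exon bases, and other genes lie on the opposite strand, which the counts may not separate.

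Single arcuate times gave no calls among the 10. HepDKO minus Control passed in 0 of 10 genes at ZT4, ZT10, ZT16 and ZT22 with edgeR and with DESeq2, and 0%, 0%, 0% and 0% of all genes passed with edgeR. An unadjusted p under 0.05 was found for 1, 0, 1 and 0 of the 10, each time Ddit3, against 11.9%, 2.34%, 2.73% and 3.72% of all genes. At ZT4, 7 of 10 differences were negative, with Hspa5 at -0.14 (394 ± 43.8 CPM in HepDKO and 434 ± 10.9 in Control, SD, n = 3, edgeR adjusted p = 0.469). That difference was -0.058 without HepDKO replicate 3 at ZT4 (349.5 CPM), a library apart in brain cell and pituitary sums, and -0.22 without HepDKO replicate 2 (437 CPM).

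**Figure D5:**
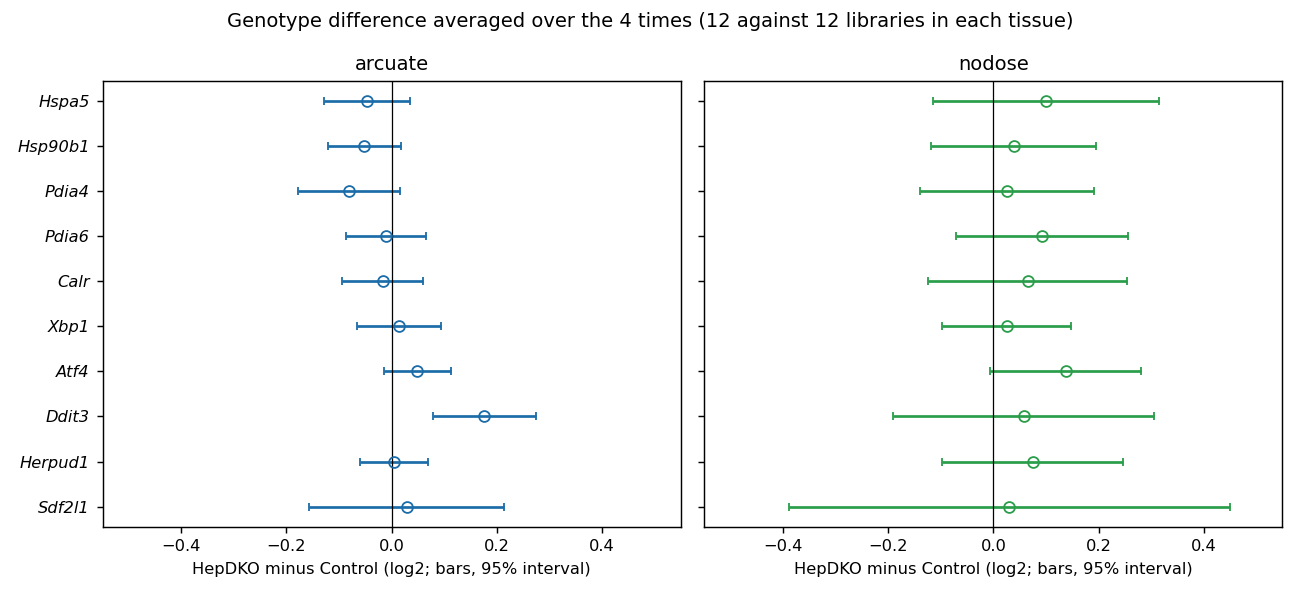
Log2 difference HepDKO minus Control averaged over the 4 times (x axes, bars are 95% intervals) for each gene in arcuate (left) and nodose (right), 12 against 12 libraries in each. Only arcuate Ddit3, at 0.18, has an interval without 0, and no difference passed the adjusted test.

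In nodose all 10 differences averaged over time were positive, from 0.025 for Xbp1 to 0.14 for Atf4, where 53.3% of all genes were positive. None passed with edgeR or DESeq2 (0% of all genes with edgeR), and 0 of 10 had an unadjusted p under 0.05. Atf4 came nearest (95% interval -0.0056 to 0.28, unadjusted p = 0.0588, edgeR adjusted p = 1), and its difference was 0.080 without HepDKO replicate 3 at ZT22. The sign turned negative for 6 of the 10 (Hsp90b1, Pdia4, Calr, Xbp1, Ddit3 and Sdf2l1) when certain single libraries were left out. At ZT4, ZT10, ZT16 and ZT22, 0 of 10 genes passed by either tool, and 0%, 0%, 0% and 0% of all genes passed with edgeR. An unadjusted p under 0.05 was found for 0, 0, 0 and 1 of the 10.

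At ZT22 in nodose all 10 differences were positive, against 51.1% of all genes. Without HepDKO replicate 3 at that time 8 of 10 were positive, with Atf4 at -0.032, Herpud1 at -0.10, Calr at 0.019 and Hspa5 at 0.069. Ddit3 had 0.61 (95% interval 0.11 to 1.097, unadjusted p = 0.0183, edgeR adjusted p = 0.877). The Control libraries had 11.4, 16.5 and 17.7 CPM of Ddit3 and the HepDKO libraries 17.2, 19.3 and 32.1. The 2 groups overlapped, and the 32.1 came from HepDKO replicate 3, without which the difference was 0.29 (unadjusted p = 0.219). That library also had the highest nodose ZT22 level of Hspa5 (435), Calr (569), Atf4 (135) and Herpud1 (98.4 CPM). Its muscle markers summed to 49970 CPM and its fibroblast markers to 12930, against 12600 to 35220 and 7597 to 11450 in the other 5 libraries of that time, and the part of these cells in its values was not tested.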

How the data were processed

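RNA was sequenced from 24 arcuate and 24 nodose libraries, each of pooled mice, so p-values measure the spread between 3 pools a group. The authors deposited 1 table of raw read counts per gene symbol. Per the submitters' processing notes, the tools were FastQC 0.11.7, Trim Galore 0.6.10 and STAR 2.7.10b with the mm10 build; the counting tool, its annotation and its use of strand are not given in the sources used here. Totals per library ran from 1813994 to 20399718 counts.

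Counts of the 2 tissues entered separate fits in edgeR 4.0.16 (R 4.3.3, limma 3.58.1), with filterByExpr over the 8 groups, TMM scaling and a robust quasi-likelihood fit of 8 group means. The 24-h pattern was an F test on 2 contrasts, and the 12-h component and genotype differences were single contrasts. Over 24 such tests, p-values were adjusted over all tested genes of each (Benjamini-Hochberg, threshold 0.05). Tissues were compared through the 2 fits' estimates with their own spreads. Alternatives were DESeq2 1.42.0, RLE scaling, no filter, a replicate block, marker levels as covariates, 1 joint fit and leaving out each library. The test scripts were tested on simulated data. CPM are TMM-scaled within tissue. Named genes outside the 10 were the up to 3 lowest adjusted p past the threshold in each list and the 5 most like Hspa5. The 10 genes, the lists and the tests were chosen with earlier results of these data known. Replicates were compared by chi-square over genes with at least 20 counts in the pair, and no pair agreed within sampling noise (lowest chi-square per degree of freedom 2.89 in arcuate and 8.12 in nodose).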

Additional observations from a re-analysis of the deposited data

Results flagged for a closer look

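In 8 of 80 sets of 6 libraries of 1 tissue and time, 1 library stood apart from the other 5 for a gene by Dixon's test, where chance gives about 1 in 20. Nodose HepDKO replicate 3 at ZT22 held 4 of them, the highest values of Hspa5 (434.8 CPM, next 318.1), Calr (568.7, next 364.7), Atf4 (135, next 98.34) and Herpud1 (98.41, next 69.67). Its muscle and fibroblast markers were the highest of the 6 libraries of that time, and their part was not tested. Arcuate Control replicate 1 at ZT22 held 2, the lowest Pdia6 (132.2 CPM, next 153.9) and the highest Herpud1 (69.67 CPM, next 62.05). That library had the highest oligodendrocyte (3553 CPM), neuron (3548) and Schwann cell (288.5) marker sums of the arcuate libraries, and their part was not tested. Sdf2l1 was highest in arcuate HepDKO replicate 2 at ZT16 (20.6 CPM, next 16.87), and Xbp1 was lowest in arcuate HepDKO replicate 3 at ZT4 (82.99 CPM, next 89.71), the library with the lowest astrocyte and tanycyte sum.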

How the results depend on the processing

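Of 670 single values under alternatives other than leaving out 1 library, 629 had the direction and the call reported, 6 lost the call, 26 gained one and 9 turned in direction. The cause of these shifts was not tested. In nodose, 1.3-fold 24-h patterns were mostly not recovered in simulated data. Nodose libraries were both shallower and more variable (within-group CV of Hspa5 21.3%, against 7.30% in arcuate), and the 2 were not separated.

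With DESeq2 the arcuate 24-h pattern passed in 1117 genes (622 with edgeR), in Control in 108 genes and 3 of the 10, and in HepDKO in 380 and 5. DESeq2 called 1 gene for the genotype difference in that pattern, 20 genes and 1 of the 10 for the 12-h component, 23 for genotype and 21 for genotype at ZT4. In nodose DESeq2 called 383 genes (198 with edgeR) and 3 of the 10 for the 24-h pattern, 135 in Control, 73 in HepDKO, 7 for the 12-h component and 3 for genotype. With marker levels as covariates the arcuate calls were 254 genes and 4 of the 10 for the 24-h pattern, 1 of the 10 in HepDKO, 24 genes and 2 of the 10 for the 12-h component and 14 genes for genotype. In nodose they were 0 of the 10 for the 24-h pattern and 37 genes in HepDKO, and 34 genes differed between tissues (52 without covariates). That fit turned the sign of the arcuate Hsp90b1 12-h component (0.002575) and of the Herpud1 genotype difference in arcuate (-0.0003504) and nodose (-0.008142). Without the 2 shallowest nodose libraries, chosen after seeing the data, 117 nodose genes and 0 of the 10 passed the 24-h test, 10 genes in Control, and 22 genes differed between tissues. One joint fit gave 169. Without the 2 arcuate libraries apart in brain cell and pituitary sums, also chosen after seeing the data, the 24-h pattern passed in 1213 arcuate genes, in 244 genes and 6 of the 10 in Control and in 302 and 5 in HepDKO, and the 12-h component in 29 and 1. The arcuate 12-h component of Hsp90b1 (0.02106) and genotype difference of Sdf2l1 (-0.06729) turned sign there, and the tissue difference of Xbp1 turned direction (0.01723). The near-zero tissue difference of Xbp1 turned direction with covariates (0.008104), in the joint fit (0.01042) and without a filter (0.001773).

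Replicate numbers were not taken to pair the libraries in the main fits. Of 84 same-numbered pairs in each tissue, 14 in arcuate and 25 in nodose had an r of deviations over 0.1. The mean r of such pairs was 0.0279 in arcuate (-0.014 for other numbers), with 16 of 24 libraries closest to their own number. In nodose the mean was 0.000665 (-0.000218 for other numbers), with 11 of 24. These values do not settle whether a number marks a shared batch. With the replicate block 677 arcuate genes and 8 of the 10 passed the 24-h test (Calr joined, edgeR adjusted p = 0.0235), Pdia4 joined in HepDKO (0.0440), and 190 nodose genes passed with 1 of the 10.

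Leaving out single libraries in turn gave 287 to 1031 genes and 5 to 8 of the 10 for the arcuate 24-h pattern, the lowest without HepDKO replicate 2 at ZT16. Control gave 11 to 117 genes and 0 to 3 of the 10, HepDKO 31 to 312 and 0 to 5, the 12-h component 2 to 10 and 0 to 1, genotype 0 to 7 genes, 0 to 3 at ZT4 and 0 to 5 at ZT22. In nodose the 24-h pattern gave 129 to 276 genes and 0 to 2 of the 10, Control 15 to 71 genes, the 12-h component 0 to 1, genotype 0 to 1 and 0 to 1 at ZT10, and 20 to 64 genes differed between tissues. The tissue difference of Xbp1 ran from 0.002146 to 0.03192. The arcuate 12-h component of Hsp90b1 ran from -0.02195 to 0.01521. Arcuate genotype differences that turned sign ran from -0.03069 to 0.008846 (Pdia6), -0.04164 to 0.003078 (Calr), -0.00511 to 0.03287 (Xbp1), -0.007544 to 0.02171 (Herpud1) and -0.02405 to 0.0758 (Sdf2l1). In nodose they ran from -0.002659 to 0.07205 (Hsp90b1), -0.01701 to 0.07954 (Pdia4), -0.01778 to 0.09535 (Calr), -0.01433 to 0.04535 (Xbp1), -0.02632 to 0.09445 (Ddit3) and -0.1209 to 0.1056 (Sdf2l1).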
